A study of Mus musculus with 6 samples.

Results

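The 49 genes described here build and run the mitotic machinery: cyclins and kinases of mitotic entry, condensins, the chromosomal passenger complex, the spindle checkpoint, the kinetochore, spindle motors and regulators of anaphase. They were named as a list from knowledge of mitosis, and their values were read from non-control probes whose gene name in the scanner files was a listed symbol. All 49 had a probe, among 28312 genes with a probe. A gene with several probes was represented by the probe with the highest mean signal.

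RNA was measured on 6 single-colour Agilent arrays from C57BL/6N wild-type mice, all 3 days after acute myocardial infarction (AMI). 3 samples per tissue were measured: heart 1, 2 and 4 hold cells taken from the left ventricle with the infarct, and spleen 1, 2 and 4 hold cells taken from spleens. In both tissues the cells were sorted for high CD45 and high CD11b, with low staining for antigens of B cells (CD45R/B220), T cells (CD90.2), natural killer cells (NK-1.1 and CD49b) and neutrophils (Ly6G). The labels name no uninfarcted animals, no genetic change and no age, and they leave unsaid whether a number (1, 2 or 4) stands for the same mouse in both tissues. The p-values below measure the spread between these samples.

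Cells that prepare to divide raise the RNA of mitotic genes late in the cycle, condense their chromosomes, attach them to spindle microtubules through kinetochores, and separate them once the spindle checkpoint is satisfied. Many of these genes share a promoter element, the cell cycle genes homology region (CHR), which is bound by the MuvB complex together with B-Myb or Foxm1 during division, and CCAAT boxes bound by NF-Y. After infarction, monocytes are made from dividing progenitors in the marrow and the spleen, and they enter the injured heart, where they mature into macrophages.

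The promoters of the listed genes are shown first, and their part in the changes between the tissues was not tested. A table of RefSeq promoters (GRCm38.p6, 250 bases before to 50 bases after each gene start) held 41 of the 49 genes. The CHR was searched as TTTGAA or TTCGAA and the CCAAT box as CCAAT, each on both strands, with overlapping matches allowed. A CHR was present in 31 of the 41 genes (75.6%), against 21.7% of the 27025 genes in the table, and a CCAAT box in 30 (73.2%), against 41.1%. Both motifs were present in 27 genes (65.9%), against 8.61%, and at least 2 CCAAT boxes in 21 (51.2%), against 13.3%. A CHR lay within 50 bases of the start in 28 of the 41 genes (68.3%), against 6.12% of all genes in the table. These are matches of letters, not bound sites.

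Below are the 250 bases before the start of 4 genes whose RNA was called lower in heart and of Bub3, whose RNA was not, which was added after its values were seen. The 4 are, among the 6 called genes with both motifs and the largest fitted change, those with a CHR before the start; Kif4 and Plk1 had theirs after it. Of the 6, Kif11, Top2a, Cdk1 and Kif4 were at background on all hearts, so their fitted change is no measured size. Each is printed 5′ to 3′ on the gene's own strand with the CHR and CCAAT matches in capitals (ATTGG and TTCAAA are the matches on the opposite strand).
Kif11, chr19:37376132-37376381, plus strand: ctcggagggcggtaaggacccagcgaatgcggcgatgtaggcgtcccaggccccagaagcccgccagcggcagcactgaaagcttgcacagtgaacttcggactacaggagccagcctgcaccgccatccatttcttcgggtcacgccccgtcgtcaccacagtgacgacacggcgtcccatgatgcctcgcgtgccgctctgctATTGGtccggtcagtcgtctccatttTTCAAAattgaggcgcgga
Kif22, chr7:127042421-127042670, minus strand: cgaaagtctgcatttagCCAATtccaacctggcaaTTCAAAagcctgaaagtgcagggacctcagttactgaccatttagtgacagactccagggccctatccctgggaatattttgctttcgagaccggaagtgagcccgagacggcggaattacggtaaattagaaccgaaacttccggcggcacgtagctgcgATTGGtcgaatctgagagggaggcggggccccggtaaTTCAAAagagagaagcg
Top2a, chr11:99024190-99024439, minus strand: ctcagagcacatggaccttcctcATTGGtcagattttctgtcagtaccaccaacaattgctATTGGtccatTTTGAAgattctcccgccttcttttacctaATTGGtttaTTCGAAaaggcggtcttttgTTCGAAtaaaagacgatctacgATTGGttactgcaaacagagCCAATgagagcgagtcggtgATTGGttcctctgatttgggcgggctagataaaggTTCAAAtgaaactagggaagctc
Cdk1, chr10:69352913-69353162, minus strand: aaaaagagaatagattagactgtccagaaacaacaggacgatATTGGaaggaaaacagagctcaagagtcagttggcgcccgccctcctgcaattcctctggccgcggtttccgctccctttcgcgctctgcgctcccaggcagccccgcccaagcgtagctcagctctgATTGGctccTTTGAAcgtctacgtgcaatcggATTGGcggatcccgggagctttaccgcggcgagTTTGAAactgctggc
Bub3, chr7:131560120-131560369, plus strand: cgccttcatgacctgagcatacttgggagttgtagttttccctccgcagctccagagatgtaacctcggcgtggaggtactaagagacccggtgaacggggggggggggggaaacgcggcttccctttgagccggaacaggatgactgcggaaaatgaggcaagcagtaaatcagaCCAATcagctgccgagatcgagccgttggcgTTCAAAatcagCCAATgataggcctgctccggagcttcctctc
Counted from the gene start to the first base of the match, the last CHR lay at −19 in Kif11, −17 in Kif22, −23 in Top2a, −15 in Cdk1 and −43 in Bub3. The CCAAT boxes nearest the start lay at −45, −54, −58, −48 and −32 in the same order, with 1 box in Kif11, 6 in Top2a and 3 in Cdk1. Bub3 held a CHR and 2 CCAAT boxes although its RNA differed little between the tissues. Among the tested genes in the table, a CHR was present in 21 of 28 called lower in heart and in 8 of 10 not called.

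**Figure D1:**
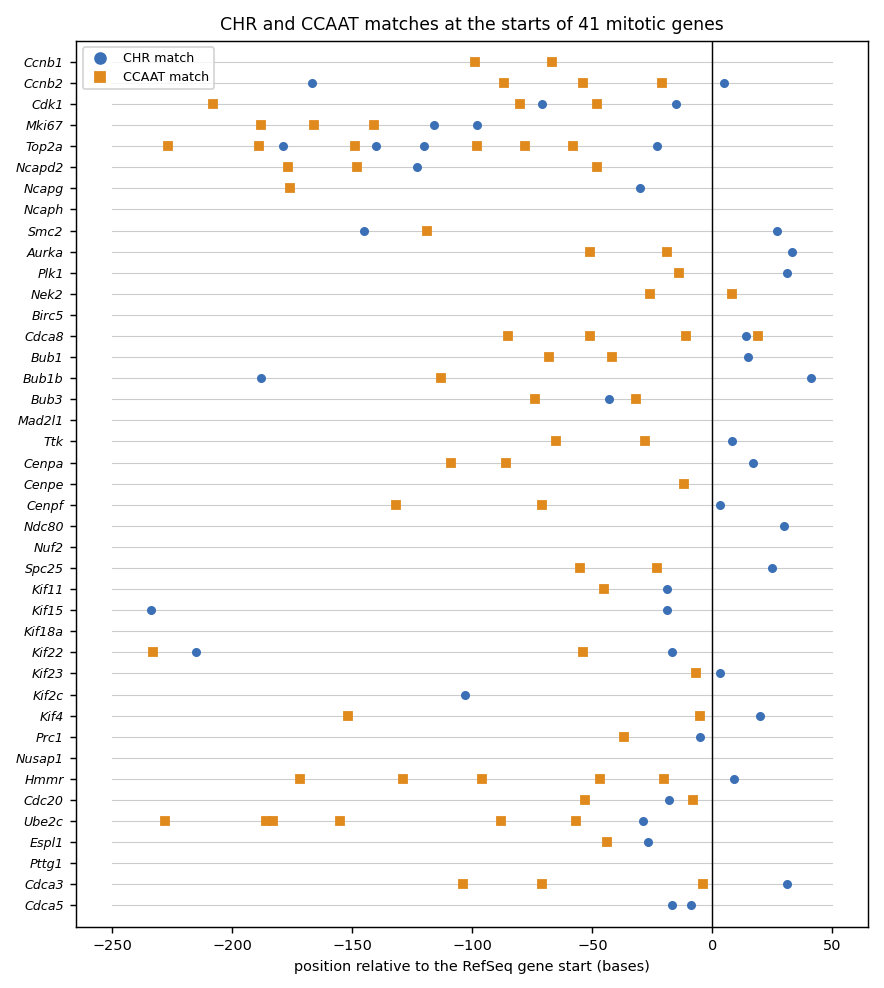
Positions of CHR (blue circles) and CCAAT (orange squares) matches relative to the RefSeq gene start (bases, x axis) in the 41 listed genes with a promoter entry, 1 line per gene. Of the 41 genes, 28 have a CHR within 50 bases of the start.

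Signals are given as levels, log2 of the processed signal minus the 75th percentile of the array, so that 0 is the brightness of that percentile. Levels of different genes come from different probes and were not compared with each other. On each array, 52.8% to 63.6% of probes were well above background and 0 spots were saturated. The arrays lay on 3 slides: spleen 1 and spleen 2 on slide 1, spleen 4 and heart 1 on slide 2, and heart 2 and heart 4 on slide 3. The sample titles carry an earlier date for spleen 1, spleen 2, heart 1 and heart 2 and a later date for spleen 4 and heart 4. The heart arrays resembled each other (r of 0.994 to 0.995 across 19313 probes, which are not independent replicates) more than the spleen arrays did (0.946 to 0.964). Spleen 4 was the spleen array closest to the hearts (0.948 to 0.953), and spleen 1 stood apart by high signals of B cell, T cell and erythroid markers, given at the end. Ptprc, which encodes CD45, was at 3.00 ± 0.04 (SD, n = 3) in spleen and 2.89 ± 0.12 (SD, n = 3) in heart. Itgam, which encodes CD11b, was at 3.94 ± 0.35 (SD, n = 3) in spleen and 3.98 ± 0.14 (SD, n = 3) in heart.

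RNA of the mitotic genes was far lower in heart than in spleen myeloid cells. Of the 49 genes, 45 were tested because the scanner program called their probe well above background throughout heart or throughout spleen (or both), and 32 of the 45 (71.1%) were called lower in heart by limma (Benjamini-Hochberg adjusted p under 0.05), against 6.44% of all 16358 tested genes (15.5% were called in either direction). The number called higher was 0 (0 also at an unadjusted p under 0.05), against 9.04% of all tested genes. The median log2 fold change of the 45 was −3.98, a 15.8-fold lower signal, and the median over all tested genes was 0.11. Relative to the median over all genes the 45 stood at −4.08, also when each array was scaled to its median signal, which put the median of all genes at 0.22. The sign was negative for 44 of 45, and the 3 heart values lay below the 3 spleen values for 39, against 16.4% of all tested genes. These counts include 9 genes measured on no heart array and 7 measured on only some. Both sets entered the test through spleen alone, which favoured a lower heart value. Among the 29 genes measured on all 6 arrays, 19 were called lower. The 13 genes not called were Ncaph, Smc4, Aurka, Aurkb, Incenp, Bub3, Cenpa, Ndc80, Kif2c, Prc1, Hmmr, Espl1 and Pttg1, and all but Bub3, Cenpa, Hmmr and Pttg1 had an unadjusted p under 0.05, which 41 of the 45 genes did in all, lower in heart each time, against 13.6% of all tested genes. In bulk RNA, fewer dividing cells and less mitotic RNA per cell cannot be told apart.

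The count of calls depended on single arrays. It was 17 without spleen 1, 24 without spleen 2 and 43 of 48 without spleen 4, while 6.90%, 4.67% and 10.657% of all genes were called lower in the same fits. Calls in either direction over all genes were 2721, 1871 and 4149. It was 1 without heart 1 (Ncapg), 1 without heart 2 (Ncapg) and 2 without heart 4 (Ncapg and Aurkb), while 39 of the 45 were lower at an unadjusted p under 0.05 in each of these 3 fits and the median stayed between −4.06 and −3.87. Over all genes, calls fell from 2533 to between 462 and 506 in the same 3 fits. With slide as a fixed block, which draws the difference from slide 2, the only slide with both tissues, 0 of 45 were called (30 were lower at an unadjusted p under 0.05, and 90 genes were called over all) and the median was −2.57. Between the 2 arrays on that slide, heart 1 was below spleen 4 for 42 of the 45 genes, and for 47.0% of all genes. The filter favoured this direction for the genes that entered the test through spleen alone. With slide as a random block the count was 32.

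**Figure D2:**
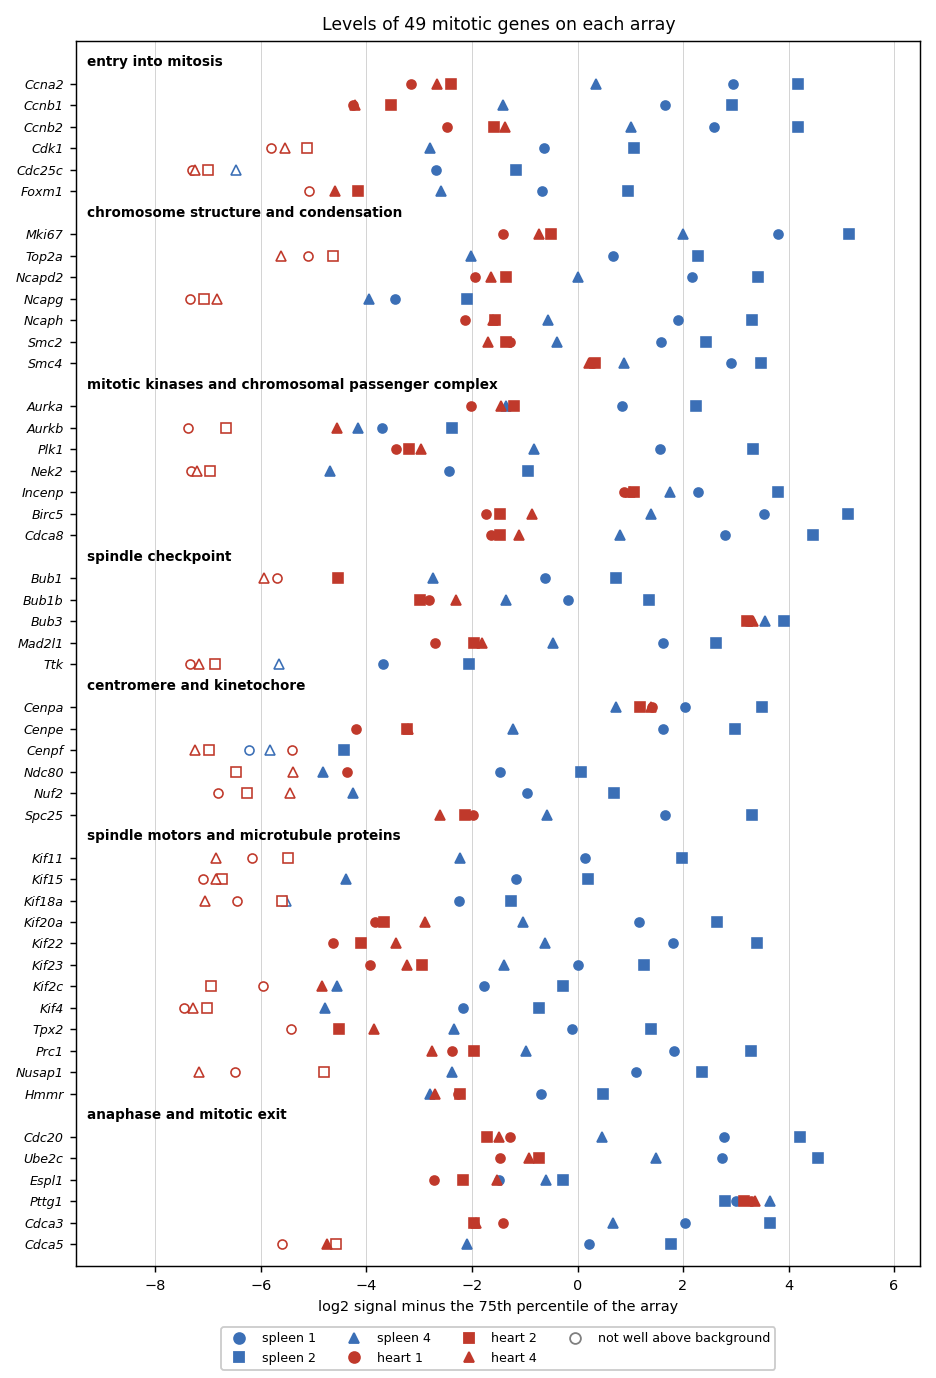
Level of each of the 49 genes on each array (log2 signal minus the array's 75th percentile, x axis), grouped by role, with spleen in blue, heart in red and open symbols where the probe was not well above background. The 3 heart values lie left of the 3 spleen values for 39 of the 45 tested genes, and spleen 4 (blue triangles) lies nearest to the hearts in most rows.

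The arrays also differed in how many of the genes they measured. Well above background were 48, 49 and 45 of the 49 genes on spleen 1, spleen 2 and spleen 4, against 30, 32 and 34 on heart 1, heart 2 and heart 4. On all 6 arrays 29 genes were measured, and the 19 of these that were called were 6.24- to 48.4-fold lower in heart. On no heart array were 13 genes measured. Of these, 9 entered the test, through spleen alone, so their direction was set by the filter and their calls support nothing further. Another 7 genes, measured on some but not all heart arrays, also entered through spleen alone (Foxm1, Aurkb, Bub1, Ndc80, Kif2c, Tpx2 and Cdca5). The filter favoured a lower heart value for them too, and 4 of the 7 were called. For the 9 genes measured on no heart array only a lower bound of the change exists, between 3.50- and 40.6-fold. The bound sets the spleen mean against, for each heart array, the higher of the gene's own level and the lowest level of any probe well above background. The 4 genes not tested were Cdc25c, Ttk, Cenpf and Kif18a, all of them below that limit on every heart array.

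All 5 tested genes of mitotic entry were called lower in heart, with a median log2 fold change of −4.71. Ccna2, cyclin A2 of S phase and early mitosis (mm9 chromosome 3, 36463978 to 36464037), was at 2.95, 4.18 and 0.35 on spleen 1, spleen 2 and spleen 4 and at −3.16, −2.41 and −2.66 on heart 1, heart 2 and heart 4. Spleen 4 was the lowest spleen and still above every heart. The log2 fold change was −5.24 ± 0.92 (SE, adjusted p = 0.0171), 37.8-fold lower. Ccnb1, cyclin B1 (chromosome 13, 101548722 to 101548781), fell from 1.66, 2.93 and −1.42 in spleen to −4.26, −3.53 and −4.23 in heart, a change of −5.06 ± 1.04 (SE, adjusted p = 0.0258). Its other probes gave −4.98 and −3.46, and the latter did not pass. Ccnb2, cyclin B2, stood at 2.59, 4.18 and 1.01 in spleen and at −2.47, −1.58 and −1.37 in heart, a change of −4.40 ± 0.78 (SE, adjusted p = 0.0176). The cyclins thus kept the same order of arrays, with spleen 2 highest, then spleen 1, then spleen 4.

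Cdk1, the kinase that these cyclins activate (chromosome 10, 68801072 to 68801131), was at −0.63, 1.08 and −2.80 in spleen, and its heart values of −5.80, −5.14 and −5.55 were not well above background. Its signal was at least 18.3-fold lower in heart (mean −0.78 in spleen and −5.50 in heart, adjusted p = 0.0215). Foxm1, the transcription factor of late cell cycle genes, went from −0.67, 0.96 and −2.60 in spleen to −5.09, −4.16 and −4.59 in heart, with heart 1 not well above background. Its change was −3.85 ± 0.85 (SE, adjusted p = 0.0311). Cdc25c, the phosphatase that activates Cdk1, was measured on spleen 1 (−2.68) and spleen 2 (−1.17) only and was not tested. Without spleen 1, Ccna2, Ccnb2 and Cdk1 were called and Ccnb1 and Foxm1 were not; with any heart array left out, 0 of the 5 were called, and the median was between −4.89 and −4.56.

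Among chromosome structure and condensation genes, 5 of 7 were called lower, with a median of −3.52. Mki67, whose product Ki-67 coats mitotic chromosomes and marks cycling cells (chromosome 7, 142881591 to 142881650), was at 3.81, 5.15 and 2.00 in spleen and at −1.42, −0.49 and −0.73 in heart. Every spleen lay above every heart, and the change was −4.53 ± 0.76 (SE, adjusted p = 0.0155), 23.2-fold lower. A further Mki67 probe gave −4.65. Top2a, the topoisomerase that untangles sister DNA (chromosome 11, 98855522 to 98855581), was at 0.67, 2.29 and −2.03 in spleen, and its heart values of −5.11, −4.64 and −5.62 were not well above background. It was at least 37.3-fold lower (mean 0.31 in spleen and −5.12 in heart, adjusted p = 0.0205).

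Of 5 genes of condensin, the ring complex that compacts chromosomes, 3 were called lower. The subunits Ncapd2 (−3.52, adjusted p = 0.0347) and Ncapg (at least 3.50-fold lower, mean −3.17 in spleen and −7.09 in heart, adjusted p = 0.00595) and the core subunit Smc2 (−2.65, adjusted p = 0.0470) were called, Smc2 not on the deposited value table. Ncaph had a log2 fold change of −3.33 (adjusted p = 0.0564) and did not pass. Smc4, the partner of Smc2, had the smallest change of the group. It was at 2.91, 3.49 and 0.88 in spleen and at 0.29, 0.34 and 0.21 in heart, so the tissues did not overlap, and the change of −2.14 ± 0.64 (SE, adjusted p = 0.0720) did not pass. Without spleen 1 or without spleen 2, Mki67, Top2a and Ncapg were called; without spleen 4, all 7 were; and with any heart array left out Ncapg alone was.

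Of the mitotic kinases and the chromosomal passenger complex, 4 of 7 genes were called lower, with a median of −4.09. With normexp background correction 3 were called (Plk1, Birc5 and Cdca8) and the median was −1.997. The complex corrects faulty attachments of microtubules and is formed by the kinase Aurkb with Incenp, Birc5 and Cdca8. Birc5, survivin (chromosome 11, 117716978 to 117717037), was at 3.53, 5.14 and 1.39 in spleen and −1.73, −1.47 and −0.86 in heart, a change of −4.71 ± 0.89 (SE, adjusted p = 0.0206). Its other probes gave −4.94 and −5.20. Cdca8, borealin, changed by −4.09 (adjusted p = 0.0267). Incenp, the scaffold, was at 2.29, 3.81 and 1.76 in spleen and 0.89, 1.06 and 0.99 in heart; the values did not overlap, but the change of −1.64 ± 0.51 (SE, adjusted p = 0.0787) did not pass.

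Aurkb was at −3.70, −2.37 and −4.16 in spleen and −7.38, −6.67 and −4.56 in heart, where only heart 4 was well above background. Its change of −2.79 ± 0.80 (SE, adjusted p = 0.0647) did not pass, and it was −1.42 with the dim arrays held at the floor. Plk1, a kinase of centrosomes, kinetochores and the midzone (chromosome 7, 129313220 to 129313279), fell from 1.56, 3.34 and −0.83 to −3.44, −3.20 and −2.97, a change of −4.56 ± 0.97 (SE, adjusted p = 0.0277). Nek2, a kinase of centrosome separation, was at −2.44, −0.95 and −4.70 in spleen and at −7.33, −6.97 and −7.20 in heart, none of the latter well above background. It was at least 4.86-fold lower (mean −2.69 in spleen and −7.17 in heart, adjusted p = 0.0225) and was not called with normexp background correction. Aurka, the kinase of spindle poles, had a log2 fold change of −2.13 (adjusted p = 0.147), with spleen 4 at −1.36 inside the heart range of −2.01 to −1.21. Without spleen 1, Nek2 and Birc5 were called; without heart 1 or heart 2, 0 of the 7 were, and without heart 4 Aurkb was.

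In the spindle checkpoint, which holds back anaphase until every chromosome is attached, 3 of 4 tested genes were called lower. Mad2l1, the inhibitor released by unattached kinetochores (chromosome 6, 66490836 to 66490895), went from 1.62, 2.63 and −0.46 in spleen to −2.70, −1.96 and −1.81 in heart, a change of −3.42 ± 0.76 (SE, adjusted p = 0.0318). Its other 2 probes gave −2.50 and −2.38 and did not pass, and Mad2l1 was not called on the mean of its probes (−2.77). Bub1, a checkpoint kinase (chromosome 2, 127626988 to 127627047), was at −0.61, 0.73 and −2.74 in spleen and at −5.69, −4.53 and −5.94 in heart, where only heart 2 was well above background. Its change was −4.51 ± 0.88 (SE, adjusted p = 0.0220), or −4.02 with the dim arrays held at the floor. Bub1b, BubR1, changed by −2.64 (adjusted p = 0.0421) and was not called with title date as a block.

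Bub3, the binding partner of Bub1 and Bub1b (chromosome 7, 138712221 to 138714437), was at 3.20, 3.92 and 3.56 in spleen and at 3.28, 3.22 and 3.32 in heart. The groups overlapped, and the change was −0.29 ± 0.22 (SE, adjusted p = 0.425). Ttk, the kinase that starts checkpoint signalling, was measured on spleen 1 (−3.68) and spleen 2 (−2.05) only and was not tested. Without spleen 1, Bub1 alone was called, and with any heart array left out 0 of the 4 were.

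At the centromere and kinetochore, 3 of 5 tested genes were called lower. Cenpe, the kinetochore motor that moves chromosomes to the spindle equator (chromosome 3, 134936387 to 134936446), was at 1.62, 2.99 and −1.23 in spleen and at −4.20, −3.22 and −3.21 in heart. The change was −4.67 ± 1.02 (SE, adjusted p = 0.0302). Of the Ndc80 complex, which grips microtubule ends, Nuf2 was at −0.96, 0.68 and −4.25 in spleen and at −6.82, −6.27 and −5.44 in heart, none of the latter well above background. It was at least 11.1-fold lower (mean −1.51 in spleen and −6.18 in heart, adjusted p = 0.0459) and was not called with title date as a block or with normexp background correction. Spc25 of the same complex changed by −3.70 (adjusted p = 0.0416). Ndc80 itself had a log2 fold change of −3.35 (adjusted p = 0.122), or −2.64 with heart 2 and heart 4, which were not well above background, held at the floor. Its value on heart 1, −4.37, lay above that on spleen 4, −4.82.

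Cenpa, the histone H3 variant that marks centromeres (chromosome 5, 30974916 to 30975386), was at 2.04, 3.49 and 0.73 in spleen and at 1.41, 1.18 and 1.39 in heart. Spleen 4 was below every heart while the other 2 spleens were above, and the change was −0.76 ± 0.65 (SE, adjusted p = 0.472). Cenpf, a large kinetochore protein, was well above background on spleen 2 only and was not tested. Without spleen 1 or without spleen 2, 0 of the 5 genes were called; without spleen 4, 4 were; and with any heart array left out, 0 were.

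Among spindle motors and microtubule proteins, 8 of 11 tested genes were called lower, with a median of −4.39. Kif22, a motor on chromosome arms (chromosome 7, 134171255 to 134171314), was at 1.81, 3.40 and −0.62 in spleen and at −4.63, −4.11 and −3.45 in heart. Its change of −5.60 ± 0.97 (SE, adjusted p = 0.0167), 48.4-fold lower, was the largest among the 29 listed genes measured on all 6 arrays. Nusap1, which binds and stabilizes spindle microtubules (chromosome 2, 119475072 to 119475131), was at 1.12, 2.36 and −2.38 in spleen, and its heart values of −6.50, −4.81 and −7.18 were not well above background. It was at least 40.6-fold lower (mean 0.37 in spleen and −6.16 in heart, adjusted p = 0.0214), the largest bound among the listed genes.

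The other motors called were Kif11, which pushes spindle poles apart (at least 30.7-fold lower, mean −0.04 in spleen and −6.17 in heart, adjusted p = 0.0149), Kif15, which assists it (at least 9.10-fold, adjusted p = 0.0280), and the chromosome motor Kif4 (at least 5.34-fold, adjusted p = 0.0245). Spleen means were −1.79 for Kif15 and −2.56 for Kif4, and heart means were −6.90 and −7.26. With normexp background correction, neither Kif15 nor Kif4 was called. Kif20a and Kif23, motors of cytokinesis, changed by −4.39 (adjusted p = 0.0242) and −3.33 (adjusted p = 0.0232). Tpx2, the activator of Aurka, changed by −4.26 (adjusted p = 0.0310), or −4.17 with the dim heart array held at the floor; a further probe gave −2.24 and did not pass.

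Prc1, the bundler of midzone microtubules, was at 1.83, 3.29 and −0.97 in spleen and at −2.38, −1.97 and −2.75 in heart. The values did not overlap, and the change of −3.75 ± 1.01 (SE, adjusted p = 0.0541) did not pass. Hmmr, a spindle assembly factor, had the smallest change of the group. It was at −0.70, 0.47 and −2.80 in spleen and at −2.26, −2.22 and −2.69 in heart, so spleen 4 was below every heart, and the change was −1.38 ± 0.78 (SE, adjusted p = 0.276). Kif2c, a microtubule depolymerase, was well above background on heart 4 but not on the other hearts; it had a log2 fold change of −3.71 (adjusted p = 0.0720), or −2.72 with the dim arrays held at the floor. Kif18a, which dampens chromosome movement, was measured on spleen 1 (−2.24) and spleen 2 (−1.27) only and was not tested. Without spleen 1, 4 of the 11 were called (Kif11, Kif22, Kif23 and Nusap1); without spleen 4, all 11 were; and with any heart array left out, 0 were.

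**Figure D3:**
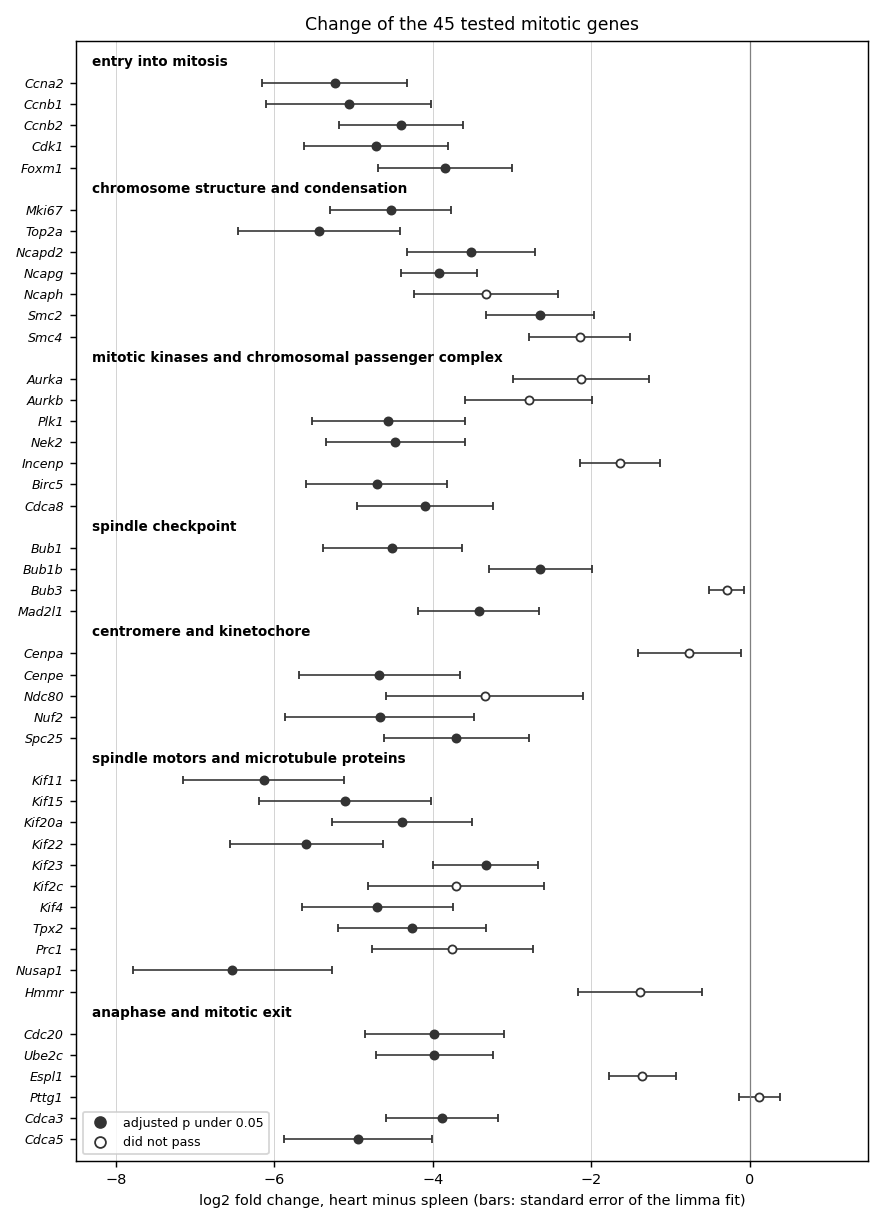
Log2 fold change, heart minus spleen (x axis), of the 45 tested genes by role, with bars for the standard error of the limma fit; filled points had an adjusted p under 0.05. The points run from −6.53 for Nusap1 to 0.13 for Pttg1, and the 9 genes not measured on any heart array are plotted at their fitted values, which are no bounds.

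Of 6 genes of anaphase and mitotic exit, 4 were called lower, with a median of −3.93. Cdc20, the activator of the anaphase-promoting complex (chromosome 4, 118105534 to 118105593), was at 2.78, 4.23 and 0.47 in spleen and at −1.28, −1.71 and −1.49 in heart, a change of −3.98 ± 0.88 (SE, adjusted p = 0.0311). Cdca5, sororin, which protects cohesion between sister chromatids (chromosome 19, 6091709 to 6091768), was at 0.23, 1.77 and −2.10 in spleen and at −5.61, −4.57 and −4.74 in heart, where only heart 4 was well above background. Its change was −4.94 ± 0.93 (SE, adjusted p = 0.0205), or −4.79 with the dim arrays held at the floor. Ube2c, the ubiquitin-conjugating enzyme of the complex, changed by −3.98 (adjusted p = 0.0198), and Cdca3, which promotes mitotic entry, by −3.89 (adjusted p = 0.0188).

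The protease of sister separation and its inhibitor were not called. Espl1, separase, had a log2 fold change of −1.35 (adjusted p = 0.0797). Pttg1, securin (chromosome 11, 43233801 to 43233860), was at 3.00, 2.80 and 3.64 in spleen and at 3.30, 3.16 and 3.36 in heart. The groups overlapped, spleen 4 was the highest array and spleen 2 the lowest, and the change was 0.13 ± 0.25 (SE, adjusted p = 0.774), with the sign turning to −0.15 after quantile normalization. A further Pttg1 probe gave 0.05. Without spleen 1, 4 of the 6 were called (Ube2c, Cdca3, Cdca5 and Espl1), and with any heart array left out, 0 were.

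The spleen samples differed among themselves more than the hearts did. The median SD of the 45 tested genes was 1.85 in spleen and 0.393 in heart, against 0.404 and 0.144 over all tested genes. Spleen 2 was the highest spleen for 44 of the 45 genes, and spleen 4 was the lowest for 42. Spleen 4 also lay on another slide than spleen 1 and spleen 2 and carried the later title date. Slide, date and sample cannot be told apart there. The order spleen 2 over spleen 1 over spleen 4 held for 42 of 45 (93.3%), against 17.4% of all genes. It also held for 26 of 26 tested S phase genes and for 53 of 63 further mitotic genes (84.1%). The order with all hearts below held for 38 of the 45 (84.4%), against 4.79% of all genes. The filter favoured hearts below spleens for the 9 genes measured on no heart array and the 7 measured on only some. The median difference between spleen 2 and spleen 4 was 3.68, which is close in size to the median change between the tissues. The median over the 49 genes was 1.12, 2.36 and −1.35 on spleen 1, spleen 2 and spleen 4, and −3.83, −3.20 and −2.97 on heart 1, heart 2 and heart 4. Against the heart mean, the median difference was −4.20 for spleen 1, −5.66 for spleen 2 and −2.21 for spleen 4. The genes outside the order were Bub3, Espl1 and Pttg1.

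Other genes of the cell cycle, listed by function with earlier results of these data known, were set beside the 49. Of 64 tested further mitotic genes (of 74 with a probe), 37 were called lower and 0 higher, with a median of −2.85. Of all tested genes, 6.44% were called lower and 9.04% higher. At an unadjusted p under 0.05, 48 of the 64 were lower, against 13.6% of all tested genes, and 1 was higher. The latter was Ncapg2 (1.82, adjusted p = 0.112), with every heart above every spleen. Among the further mitotic genes, Depdc1b changed by −6.47 ± 1.14 (SE, adjusted p = 0.0173), or −5.62 with the 2 dim heart arrays held at the floor. Kntc1, a kinetochore protein, was at least 12.2-fold lower (mean −1.37 in spleen and −7.19 in heart, adjusted p = 0.0112), and Melk, a mitotic kinase, at least 25.7-fold lower (mean −0.26 in spleen and −5.77 in heart, adjusted p = 0.0157). Cks1b, a small partner of cyclin-dependent kinases, had a mean level of 2.97 in spleen and 0.97 in heart and did not pass (adjusted p = 0.0741). The count of 37 was 18 without spleen 1, 24 without spleen 2 (where 1 gene was also called higher), 58 of 73 without spleen 4, and 0, 2 and 0 without heart 1, heart 2 and heart 4.

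Of 26 tested S phase genes, which copy DNA, 12 were called lower and 1 higher, against 6.44% and 9.04% of all tested genes. Their median was −2.17. The number called lower was 7 without spleen 1, 8 without spleen 2, 24 of 27 without spleen 4 and 0 with any heart array left out, a check chosen after seeing the data, like those for the lists below. Rrm2, the regulated subunit of ribonucleotide reductase, changed by −5.48 ± 0.85 (SE, adjusted p = 0.0124), Tk1, thymidine kinase, by −4.73 ± 0.90 (SE, adjusted p = 0.0209), and Uhrf1, which maintains DNA methylation, by −4.45 ± 0.85 (SE, adjusted p = 0.0209). Tyms, thymidylate synthase, was the gene called higher, by 1.32 ± 0.30 (SE, adjusted p = 0.0337). Pcna, the sliding clamp of replication, had a log2 fold change of −0.12 (adjusted p = 0.828).

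Subunits of complexes that also work outside mitosis showed small differences. Of 12 tested subunits and partners of the anaphase-promoting complex, 1 was called lower (8.33%, against 6.44% of all tested genes) and 0 higher. The gene called was Cdc27 (−0.94 ± 0.21 SE, adjusted p = 0.0319). The median was −0.11, and Anapc5 had −0.64 (adjusted p = 0.116). Cdc27 was not called when spleen 1, spleen 2 or any heart array was left out (0 of 12). Without spleen 4, 2 of 13 were called lower, against 10.657% of all genes in that fit. Of 9 cohesin genes, which hold sister chromatids together, 0 were called by limma (3 lower and 1 higher at an unadjusted p under 0.05), with a median of −0.17, and Rad21 had −0.60 (adjusted p = 0.303). Without spleen 1, and without spleen 4, 1 of the 9 was called lower, against 6.90% and 10.657% of all genes.

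**Figure D4:**
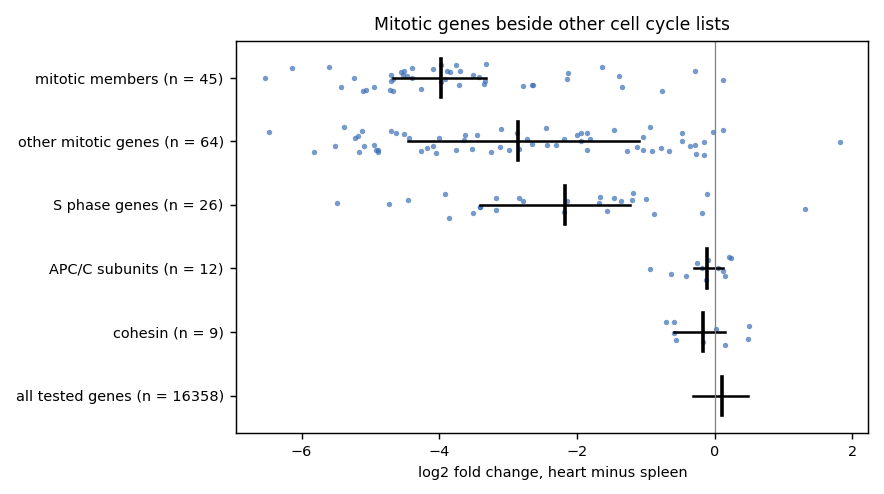
Log2 fold change, heart minus spleen (x axis), of single genes (points) in the 45 tested mitotic genes and 4 other cell cycle lists, with thick vertical bars at medians and horizontal lines from the lower to the upper quartile; for all 16358 tested genes only the median and quartiles are drawn. Medians are −3.98 for the mitotic genes, −2.85 for further mitotic genes, −2.17 for S phase genes, −0.11 for the anaphase-promoting complex and −0.17 for cohesin.

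Markers of cells that the sort could hold moved in different ways, and their part in the changes of the mitotic genes was not tested. Sums below are of linear signals, in units of each array's 75th percentile. The mitotic genes summed to 59.4 to 382 in spleen and 30.6 to 33.0 in heart. Bub3 and Pttg1, which differed little between the tissues (mean heart level 3.27 each), made up most of the heart sum. They were also a large part of the lowest spleen sum, that of spleen 4. Of 6 markers of the sorted myeloid cells, 0 were called by limma (2 higher at an unadjusted p under 0.05), with Lyz2, lysozyme, at 7.32 ± 0.61 (SD, n = 3) in spleen and 7.46 ± 0.17 (SD, n = 3) in heart. Their sum was 168 to 349 in spleen and 306 to 363 in heart. Without spleen 1, 1 of them was called higher, and without spleen 4, 2 were.

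Primary granule genes, made by granulocyte precursors, followed the order of the mitotic genes across spleens, and most were called lower in heart. Of 5 tested, 4 were called lower, against 6.44% of all tested genes, with a median of −5.545. The order spleen 2, spleen 1, spleen 4 held for 5 of 5. Elane was the gene not called, with a log2 fold change of −1.49 (adjusted p = 0.255). Its level on spleen 4, 1.66, lay below every heart (1.78 to 2.00). The number called was 1 without spleen 1, 2 without spleen 2, 5 without spleen 4 and 1 with any heart array left out. The sum was 16.1 to 213 in spleen and 6.89 to 7.33 in heart, where Elane and Prtn3 made up most of it. Ms4a3 did not rise clearly over background in any heart sample. Prtn3, proteinase 3, was at 4.12, 5.88 and 3.18 in spleen and 1.43, 1.47 and 1.76 in heart. Of 6 secondary granule genes of neutrophils, 4 were called lower, against 6.44% of all tested genes. The median log2 fold change of the 6 was −6.73. The 4 were Ltf (−9.04), Camp (−8.45), Ngp (−9.83 with its dim heart arrays held at the floor) and Lcn2 (−5.01). The order spleen 2, spleen 1, spleen 4 held for the same 4. Ngp entered the test through spleen alone, so the filter favoured its direction. The number called was 4 with any 1 sample left out. It was 2 with slide as a fixed block, against 0.0734% of all genes. The sum was 436 to 963 in spleen and 135 to 191 in heart. Chil3, which had a log2 fold change of −0.32 (adjusted p = 0.424) and a level of 7.27 ± 0.28 (SD, n = 3) in heart, made up most of the heart sum. Of stem and progenitor markers, 2 of 4 tested were called lower (Kit and Myb), against 6.44% of all tested genes. Both entered the test through spleen alone, so the filter favoured their direction. Of the 4, 1 was called without spleen 1 and 0 with any heart array left out. The list summed to 3.71 to 7.52 in spleen and 1.02 to 1.58 in heart. Myb did not rise clearly over background in any heart sample. Gata2 was not well above background on heart 2 and had no value on heart 1 and heart 4. Flt3 of that list had −1.08 (adjusted p = 0.0666), and Cd34 had 0.17 (adjusted p = 0.846).

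B cell, T cell and erythroid lists had their highest sums on spleen 1 and did not follow the order of the mitotic genes. Of 4 B cell markers tested, 0 were called by limma (3 lower at an unadjusted p under 0.05), while 2 were called lower without spleen 1. Their sum was 97.7 on spleen 1, 3.98 on spleen 2 and 3.34 on spleen 4, against 0.753 to 1.24 in heart. Cd79b, a part of the B cell receptor, was at 5.60 on spleen 1, 1.37 on spleen 2 and 1.44 on spleen 4. Of 3 T and natural killer cell markers tested, 0 were called by limma (2 lower at an unadjusted p under 0.05); 1 was called lower without spleen 1 and 3 of 5 without spleen 4. Their sum was 35.2 on spleen 1, 1.63 on spleen 2 and 0.756 on spleen 4, against 0.625 to 0.719 in heart. Cd3e was at 2.10 on spleen 1, and Cd3d, Cd3g and Klrb1c were at background in every heart sample. Ncr1 was at background on heart 1 and heart 2 and had no value on heart 4. Of 4 erythroid markers tested, 0 were called by limma (1 lower at an unadjusted p under 0.05), and 1 of 5 without spleen 4. Their sum was 189.6, 24.8 and 10.01 on spleen 1, spleen 2 and spleen 4 and 9.13 to 44.3 in heart, with Hba-a1 at 6.92 on spleen 1. Klf1 and Ahsp were at background in every heart sample.

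Of markers of heart tissue, 4 of 4 tested fibroblast genes and 3 of 4 tested cardiomyocyte genes were called higher, against 9.04% of all tested genes. All tested genes of both lists but Col1a2 entered the test through heart alone, so the filter favoured their direction. Pdgfra, the fibroblast marker not tested, was at background on every array. With any heart array left out, 2 or 3 fibroblast genes and 1 cardiomyocyte gene were called. Fibroblast markers summed to 0.101 to 0.161 in spleen and 1.47 to 4.77 in heart, with Col1a2 at −4.41 ± 0.24 (SD, n = 3) in spleen and −0.14 ± 0.80 (SD, n = 3) in heart. Cardiomyocyte markers summed to 0.0913 to 0.127 in spleen and 0.410 to 0.737 in heart, with Myl2 at −4.72 ± 0.86 (SD, n = 3) in spleen and −2.41 ± 0.54 (SD, n = 3) in heart.

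**Figure D5:**
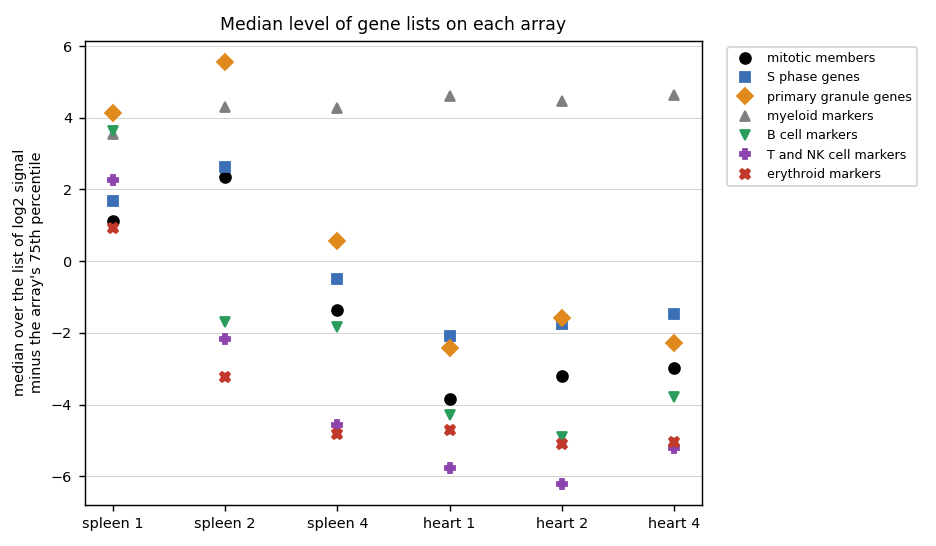
Median level over each list (log2 signal minus the array's 75th percentile, y axis) on each of the 6 arrays. The mitotic genes (black circles) and the primary granule genes (orange diamonds) are highest on spleen 2 and lowest, among spleens, on spleen 4, whereas B cell, T and NK cell and erythroid markers are highest on spleen 1.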

How the data were processed

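Each sample was hybridised to its own single-colour array, from amplified and dye-coupled cRNA of 10 ng total RNA, per the labels' protocols. Per the file headers, the deposited scanner output gives linear intensities that the authors read with Agilent Feature Extraction. The submitters' processing notes name version 10.7.3.1. That program removed the background from the processed signal and did no scaling between arrays. Each file has 44397 spots for 39429 probes. The authors' deposited value table holds log2 values. Array differences in it equalled those in quantile-normalized log2 processed signals closely, over 15 pairs of arrays and 19313 probes (r of at least 0.9998, slope 0.992 to 0.998). Every column's median was 0, and what was subtracted from each probe is unknown, so the table was an alternative source only.

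Control spots and spots marked as outliers were left out, log2 signals were set relative to the array's 75th percentile, and spots of a probe were averaged. Genes were named by RefSeq accession (26412 probes; GRCm38, names only) or by the file's name; positions are those of probes in the mouse build mm9, and whether they lie in an exon or a UTR was not analysed here. Genes were tested where the probe was well above background on all 3 arrays of a tissue, by fitting lmFit and eBayes of limma 3.58.1 (R 4.3.3), two-sided, with Benjamini-Hochberg adjustment over 16358 genes. The fit was tested on simulated data. Files were read with data.table (version 1.17.8), and plots came from Python 3.11.15 with matplotlib 3.10.9. SE is that of the moderated fit.

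Earlier results of these data were known when the 49 genes, the other lists and the naming rule were chosen. Every listed gene is named. Full values are given, in each role, for the called gene with the largest change among those measured on all 6 arrays, the called gene with the largest bound or change among the rest, the gene with the highest mean signal and the tested gene with the smallest change, and for Mki67, Top2a, Ccnb1, Cdk1, Aurkb, Plk1, Foxm1 and Birc5. From each other cell cycle list these are the 3 called genes with the largest change and the brightest gene not called, and from each marker list the brightest gene. A marker gene of the erythroid list is not reported here; sums and medians over that list include it. The number of arrays limits the precision. Same-numbered heart and spleen samples did not deviate together (correlations −0.054, 0.039 and 0.009), and the numbers were not used as pairs. With 3 samples per tissue, these correlations cannot show whether same-numbered samples share a mouse. Alternatives covered scaling, background, filter, probe choice, slide, title date, replicate number, variance model and each sample left out.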

Additional observations from a re-analysis of the deposited data

How the results depend on the processing

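The count of listed genes called higher in heart was 0 under every alternative run. The count called lower (32) was 28 to 40 under median scaling, quantile normalization, normexp background correction, the deposited value table, the mean of probes, slide as a random block, title date as a block or the earlier title date alone, the trended prior and array weights. It was 18 of 49 with no filter on dim probes, which tests 28295 genes, of which 1.80% were called lower. With only genes measured on all 6 arrays it was 20 of 29, against 5.60% of all genes in that fit. With slide as a fixed block it was 0, against 0.0734%. Leaving out 1 sample gave 1 to 43. Similar counts hid single changes: normexp ended the calls of Kif15, Kif4, Nek2 and Nuf2, the mean of probes that of Mad2l1, the deposited table that of Smc2, and title date as a block those of Bub1b and Nuf2, while Prc1 and Smc4 were gained. The count of further mitotic genes called lower (37) was 18 of 74 with no filter, 17 of 39 with genes measured on all 6 arrays, 0 with slide as a fixed block, and 0 to 58 with 1 sample left out. The median change (−3.98) was −2.57 with slide as a fixed block, −3.14 with normexp background correction and −4.91 to −3.16 with 1 sample left out. With the replicate number as a block, 31 of 45 were called lower (Bub1b, Nuf2 and Tpx2 lost, Espl1 and Prc1 gained). Calls over all genes were 1509 in place of 2533. The block removes residual degrees of freedom, and whether the numbers pair the samples is not known. The deposited values and the other scalings gave 2021 to 2509 calls over all genes. No spread can be had from the single array left of a tissue on slide 2, so tissue and slide are separated there by 1 pair of arrays.

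Signs turned for 4 genes, none of them called under these settings. With slide as a fixed block the change was 0.68 for Cenpa, 0.45 for Ndc80 and 0.54 for Hmmr. The log2 fold change of Pttg1 was −0.35 with that block, −0.15 with quantile normalization, −0.15 with the deposited values and −0.048 to 0.37 with 1 sample left out, the lowest without spleen 2; the cause was not tested. Genes with heart signals at background have only a bound, so their order by size of change is not known.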
